A study of Rattus norvegicus with 6 samples.

Results

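The keratin-associated proteins of hair were followed through rat back skin by taking each locus of the deposited gene table whose name begins with Krtap. This gave 29 members of the 34225 loci in the table, spread over 20 subfamily numbers. The rats were Sprague-Dawley, an outbred stock, and RNA of their back skin was sequenced in 6 libraries, 2 for each of 3 groups. Rats of the first group were untreated. In the others a rash had followed a daily oral dose of a drug that blocks the EGF receptor (EGFR), a kinase that keratinocytes need for growth, either 80 mg/kg of gefitinib, which binds EGFR reversibly, or 30 mg/kg of afatinib, which binds EGFR family members covalently. The doses differed, and dosing ended with the rash, on a day that the labels leave out. Vehicle-treated skin, or treated skin without a rash, was not analysed here, so drug and rash cannot be told apart. The labels do not say that the replicates came from separate rats, and the p-values below then measure only the spread between these libraries.

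Keratin-associated proteins form the matrix in which the keratin filaments of the hair shaft are embedded, and they are made late in the differentiation of cortex and cuticle cells in growing (anagen) follicles. High sulfur and ultra-high sulfur members carry many cysteines, which form disulfide bonds with each other and with hair keratins, whereas high glycine-tyrosine members are small proteins rich in those residues. Their genes are short, intronless or nearly so, and lie in dense clusters. In skin as a whole their RNA comes from few cells, and in bulk RNA fewer cells of a type and less RNA per cell cannot be told apart.

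The libraries held 17206456 to 22086673 counts and 18487 to 19913 detected genes. Levels are given as CPM, the count of a gene as a share of its library after TMM scaling between libraries, with 1 count worth 0.0386 to 0.0692 CPM. Levels are compared between genes only as FPKM, the authors' values per gene length. Skeletal muscle markers, of which 12 of 16 were in the table, took 18.8% and 17.1% of the counts of the untreated libraries, 4.59% and 7.94% in gefitinib skin, and 14.2% and 5.06% in afatinib skin. Muscle thus took its smallest shares in the 3 libraries in which the Krtap genes were highest, and its part in the results below was not tested. Epidermal markers were present in each library, with Krt5, Krt14, Krt1 and Krt10 summing to 1032 and 534 CPM in untreated skin, 1747 and 1804 CPM in gefitinib skin, and 2081 and 3325 CPM in afatinib skin.

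Krtap RNA was near the limit of detection in untreated skin and abundant in rash skin. Summed over the members, there were 129 and 29 counts in the untreated libraries, 19228 and 11511 in the gefitinib libraries, and 1518 and 14955 in the afatinib libraries. As a share of the library this was 0.000640% (95% Wilson interval 0.000538% to 0.000760%) and 0.000131% (0.0000914% to 0.000189%) in untreated skin, 0.0972% (0.0959% to 0.0986%) and 0.0560% (0.0550% to 0.0570%) in gefitinib skin, and 0.00882% (0.00839% to 0.00928%) and 0.0803% (0.0790% to 0.0816%) in afatinib skin. Each treated library was above both untreated libraries, while gefitinib and afatinib skin overlapped, and the replicates of untreated and of afatinib skin lay far apart. Scaled between libraries, the sum was 5.30 ± 5.11 CPM in untreated, 629 ± 177 CPM in gefitinib and 338 ± 338 CPM in afatinib skin (mean ± SD, n = 2 each). Afatinib replicate 2, at 577 CPM, lay between gefitinib replicates 1 (754 CPM) and 2 (504 CPM), whereas afatinib replicate 1 reached 98.6 CPM.

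**Figure D1:**
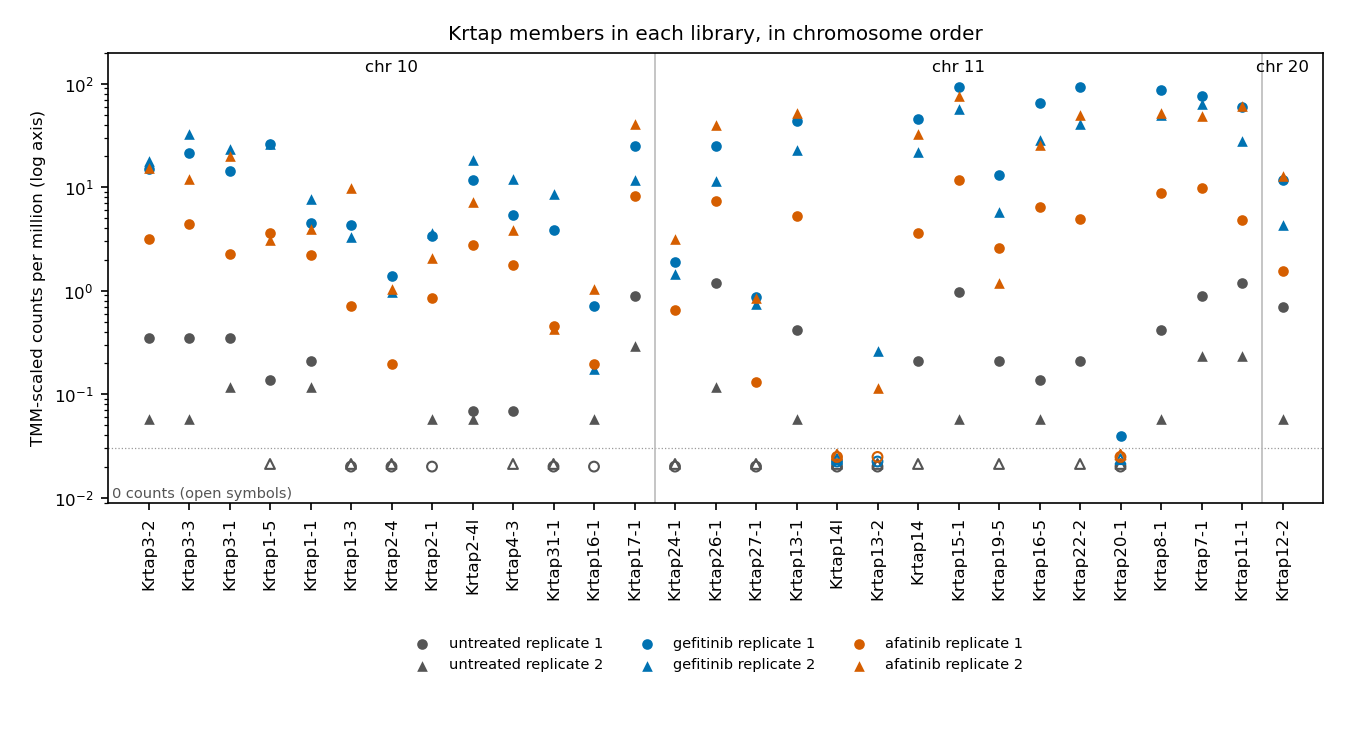
Level of each of the 29 Krtap members in each of the 6 libraries, in chromosome order, as TMM-scaled CPM on a log axis; circles are replicate 1, triangles replicate 2, and open symbols below the dotted line mark 0 counts. Each treated library lies above both untreated libraries for the 26 tested members, as for 27.2% of all genes tested. Afatinib replicate 1 is the lowest treated library for 22 of these members. The share of all genes with that order was not computed.

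The untreated pair set the limit of every comparison. Of the 29 members, 8 had 0 counts in both untreated libraries, 9 had 1 to 3 counts in the pair together, and 12 had more. No member had 10 or more counts in both untreated libraries, and the highest count was 17 in replicate 1 and 5 in replicate 2. The 26 members that passed the low-count filter passed it through the treated libraries, so that their count and their median change carry no weight of their own. All 26 were higher in each treated library than in both untreated libraries, an order that 27.2% of all genes tested had. Untreated replicate 1 was above replicate 2 for 19 of the 26, below it for 2 and level with it at 0 counts for 5.

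In the genome used by the authors, whose build the sources used here do not name, 13 members lay on chromosome 10 between 87467991 and 87928251, a stretch of 460 kb with 7 subfamily numbers and 12 of 13 genes on the minus strand. A further 15 lay on chromosome 11 between 28582897 and 29710849, over 1128 kb, with 13 subfamily numbers and 11 genes on the minus strand. The last, Krtap12-2, was the only locus named Krtap on chromosome 20, from 11620616 to 11620945. On both sides of it, from 11545513 to 11656884, lay 6 loci of other names with a keratin-associated Pfam label. Number 16 occurred on both chromosomes 10 (Krtap16-1) and 11 (Krtap16-5). The table's Pfam labels were of keratin-associated families for 21 members and blank for 8. On chromosome 10 they were the high sulfur B2 label for subfamilies 1, 2 and 16 and the high-sulphur matrix label for subfamily 3. On chromosome 11, 9 members carried the PMG label.

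Since most of these genes were high or low together across libraries, their promoters were searched for motifs known from hair genes, in the RefSeq sequences of GRCr8 from 250 bases before to 50 bases after each annotated start. Of the 29 members, 25 were matched by symbol; Krtap2-4l, Krtap24-1, Krtap22-2 and Krtap8-1 were not. TATAAA, the TATA box, was found on either strand in 20 of the 25 (80.0%), against 14.2% of all 33469 promoters. On the plus strand, starting 20 to 100 bases before the start, it was found in 19 (76.0%), against 3.52%. Among these 19 were Krtap14l, Krtap13-2 and Krtap20-1, which had too few counts to be tested. The motif was thus not limited to members that were high in rash skin. Members of a subfamily, which are close in sequence, were counted separately. Of the 2 LEF1/TCF core motifs, CTTTGT was found in 5 (20%, against 18.8%) and CTTTGA in 8 (32.0%, against 16.1%). Of the HOXC13-type motifs, TTTATG was found in 12 (48.0%, against 12.7%) and TTAATG in 3 (12%, against 9.43%). The motif TATAAA and the reverse complement of TTTATG, which is CATAAA, share their last 5 letters, but they cannot lie on the same bases. These matches are a description of letters, and for 11 members the annotated start is itself an ATG, so the distance to the true start is not known for them.

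Closer to the start, 20 to 40 bases before it, a plus-strand TATAAA began in 6 of the 25 (24.0%), against 1.37% of all promoters. The 120 bases before the annotated start are printed for 5 of these 6, as examples of a TATA box near the start, and leave out Krtap13-2, which was not tested. They were chosen for that motif, so its presence and place in them is no result. Among them Krtap1-5 was low in both afatinib libraries. Krtap17-1 was highest in afatinib replicate 2, and so by a little was Krtap11-1 (61.5 CPM, against 60.1 CPM in gefitinib replicate 1). Krtap16-5 and Krtap7-1 were highest in gefitinib replicate 1. Capitals mark the searched motifs on either strand, and neighbouring matches that overlap form longer runs of capitals.
Krtap1-5, chr10:85039857-85039976, minus strand: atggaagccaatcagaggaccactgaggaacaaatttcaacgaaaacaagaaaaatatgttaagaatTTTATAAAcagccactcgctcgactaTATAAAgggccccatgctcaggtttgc
Krtap17-1, chr10:85425040-85425159, minus strand: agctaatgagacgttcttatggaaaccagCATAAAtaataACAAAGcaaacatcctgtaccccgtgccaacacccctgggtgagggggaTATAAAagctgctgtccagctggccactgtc
Krtap16-5, chr11:41736015-41736134, minus strand: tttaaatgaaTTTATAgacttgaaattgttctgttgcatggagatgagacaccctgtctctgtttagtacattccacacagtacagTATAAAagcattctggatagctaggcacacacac
Krtap7-1, chr11:42227231-42227350, minus strand: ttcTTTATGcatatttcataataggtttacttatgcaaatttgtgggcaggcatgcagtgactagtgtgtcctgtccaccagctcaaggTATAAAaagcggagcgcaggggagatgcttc
Krtap11-1, chr11:42297152-42297271, minus strand: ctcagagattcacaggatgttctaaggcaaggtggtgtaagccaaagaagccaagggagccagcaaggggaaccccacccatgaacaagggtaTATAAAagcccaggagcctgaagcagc
The TATAAA by which they were chosen began 27 bases before the start in Krtap1-5 and Krtap11-1, 31 in Krtap17-1 and Krtap7-1, and 34 in Krtap16-5. Krtap1-5 held a further copy at 51 bases, which overlaps a copy on the minus strand. Motifs of the HOXC13 type lay within the printed windows of Krtap17-1 and Krtap7-1, at 91 and 117 bases before the start.

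Members were placed in protein classes by their subfamily number, as textbooks give it. The high glycine-tyrosine members, subfamilies 7, 8, 19, 20 and 22 on chromosome 11, included the 3 members that were highest per gene length on average over the 6 libraries and in gefitinib skin. Krtap8-1 averaged 174 FPKM over the 6 libraries, Krtap22-2 150 FPKM and Krtap7-1 52.9 FPKM, followed by Krtap15-1 at 46.7 FPKM. In afatinib skin Krtap7-1, at a mean of 45.1 FPKM, was below Krtap11-1 (57.0 FPKM), Krtap13-1 (53.8 FPKM) and Krtap15-1 (50.6 FPKM), in each case by less than the spread of the replicates. Krtap8-1 (chromosome 11, 29618672 to 29618857) stood at 0.415 and 0.0582 CPM in untreated, 87.6 and 49.9 CPM in gefitinib, and 8.84 and 52.3 CPM in afatinib skin. The groups were well apart from untreated skin, and the higher afatinib library lay between the gefitinib libraries. It rose by 8.22 ± 1.159 on the log2 scale with gefitinib (fitted change ± SE, edgeR adjusted p = 0.0116) and by 7.06 ± 1.14 with afatinib (edgeR adjusted p = 0.0323).

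Krtap22-2 had 3 counts in untreated replicate 1 and 0 in replicate 2, then 2368 and 941 counts in gefitinib and 76 and 1282 counts in afatinib skin. Scaled, these were 0.207 and 0 CPM, 92.8 and 41.2 CPM, and 4.94 and 49.4 CPM. With so few untreated counts, the ratio of the summed counts, allowing for library size, was 722 (95% exact interval 247 to 3502) for gefitinib and 347 (118 to 1683) for afatinib, counting error only. It rose in both comparisons (edgeR adjusted p = 0.0150 and 0.0410). Krtap7-1, in turn, read 0.899 and 0.233 CPM in untreated, 76.4 and 63.9 CPM in gefitinib, and 9.81 and 48.4 CPM in afatinib skin, an increase of 6.99 ± 0.95 (edgeR adjusted p = 0.0110) and 5.72 ± 0.92 on the log2 scale (edgeR adjusted p = 0.0323). Both afatinib libraries of Krtap7-1 lay below both gefitinib libraries.

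Krtap19-5 departed from its class in afatinib skin. It had 0.207 and 0 CPM in untreated, 13.2 and 5.78 CPM in gefitinib, and 2.60 and 1.20 CPM in afatinib skin, so that afatinib replicate 2, in which the other tested members of the class were high, was below replicate 1. The count ratio to untreated was 102 (34.7 to 497) for gefitinib, where it passed (edgeR adjusted p = 0.0137), and 18.1 (5.96 to 89.98) for afatinib, where it did not (edgeR adjusted p = 0.0726). Krtap20-1, the fifth of the class, had 1 count in gefitinib replicate 1, 0 elsewhere, and was not tested. The class summed to 1.73 and 0.291 CPM in untreated, 270 and 161 CPM in gefitinib, and 26.2 and 151 CPM in afatinib skin.

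Among the high sulfur members of chromosome 11, those with the PMG label (subfamilies 11, 13, 14, 15, 24, 26 and 27) summed to 3.94 and 0.465 CPM in untreated, 270 and 144 CPM in gefitinib, and 33.6 and 266 CPM in afatinib skin. Krtap15-1 was their highest per length on average over the libraries, just above Krtap11-1 (46.7 against 45.6 FPKM), and in gefitinib skin (88.9 against 78.5 FPKM), whereas Krtap11-1 was higher in untreated and afatinib skin. The levels of Krtap15-1 were 0.968 and 0.0582 CPM in untreated, 92.3 and 56.9 CPM in gefitinib, and 11.7 and 76.1 CPM in afatinib skin. Afatinib replicate 2 again fell between the gefitinib libraries, and the increase was 7.24 ± 1.22 (edgeR adjusted p = 0.0150) and 6.48 ± 1.20 on the log2 scale (edgeR adjusted p = 0.0384).

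Krtap13-1 and Krtap11-1 reached in afatinib replicate 2 a level above both gefitinib libraries. Krtap13-1 had 0.415 and 0.0582 CPM in untreated, 43.8 and 22.8 CPM in gefitinib, and 5.26 and 52.2 CPM in afatinib skin, and it rose in both comparisons (edgeR adjusted p = 0.0180 and 0.0412). For Krtap11-1 the values were 1.18 and 0.233 CPM, 60.1 and 28.1 CPM, and 4.87 and 61.5 CPM, respectively. Its afatinib libraries differed 12.6-fold, and it rose with gefitinib (6.004 ± 1.33 on the log2 scale, edgeR adjusted p = 0.0272) but missed the threshold with afatinib (5.60 ± 1.31, edgeR adjusted p = 0.0613).

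Krtap14 had 3 and 0 counts in untreated, 1162 and 500 in gefitinib, and 56 and 840 in afatinib skin. The count ratio was 363 (124 to 1760) and 229 (78.0 to 1111), and it rose in both comparisons (edgeR adjusted p = 0.0155 and 0.0414). Krtap26-1 lay at 1.18 and 0.116 CPM in untreated, 25.2 and 11.4 CPM in gefitinib, and 7.34 and 39.7 CPM in afatinib skin. Here too afatinib replicate 2 was the highest library, the increase with gefitinib passed (4.87 ± 1.12 on the log2 scale, edgeR adjusted p = 0.0297) and the afatinib value did not (5.23 ± 1.13, edgeR adjusted p = 0.0517).

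Krtap24-1 and Krtap27-1 had 0 counts in both untreated libraries, so their folds are bounds against a floor of 3 counts in each untreated library. Krtap24-1 had 1.88 and 1.44 CPM in gefitinib and 0.650 and 3.16 CPM in afatinib skin, at least 8.71-fold and at least 9.98-fold above untreated. It passed for gefitinib (edgeR adjusted p = 0.0281) and narrowly missed for afatinib (0.0519). Krtap27-1 was low throughout, with 0.862 and 0.744 CPM in gefitinib and 0.130 and 0.848 CPM in afatinib skin, at least 4.21-fold and at least 2.56-fold above untreated (edgeR adjusted p = 0.0474 and 0.121). The remaining members with this label, Krtap13-2 and Krtap14l, were not tested. Krtap13-2 had 6 counts in gefitinib replicate 2 and 3 in afatinib replicate 2, and Krtap14l had 0 counts in all 6 libraries.

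Krtap16-5 (chromosome 11, 28899792 to 28900376), labelled a keratin-associated matrix protein, had 2 and 1 counts in untreated, 1648 and 649 in gefitinib, and 98 and 657 in afatinib skin. In CPM these were 0.138 and 0.0582, 64.6 and 28.4, and 6.37 and 25.3. Both afatinib libraries lay below both gefitinib libraries, and even the lowest treated library was 46.0-fold above the higher untreated one. The count ratio was 501 (171 to 2432) for gefitinib (edgeR adjusted p = 0.00986) and 193 (65.7 to 937) for afatinib (edgeR adjusted p = 0.0308).

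On chromosome 10 the highest member per length, Krtap17-1, averaged 19.7 FPKM over the 6 libraries, and the order of the gefitinib libraries was mostly the other way round. Krtap3-1 of the high sulfur class had 0.346 and 0.116 CPM in untreated, 14.4 and 23.2 CPM in gefitinib, and 2.27 and 20.1 CPM in afatinib skin. It rose by 6.35 ± 1.19 (edgeR adjusted p = 0.0178) and 5.61 ± 1.17 on the log2 scale (edgeR adjusted p = 0.0487). The other subfamily 3 members, Krtap3-2 and Krtap3-3, rose in both comparisons as well, and Krtap3-3 had both afatinib libraries (4.42 and 12.1 CPM) below both gefitinib libraries (21.6 and 32.7 CPM).

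The subfamily 1 members, which share the high sulfur B2 label and lie within neighbouring kilobases, split in afatinib skin. Krtap1-5 (chromosome 10, 87500299 to 87500919) had 2 and 0 counts in untreated, 666 and 598 in gefitinib, and 56 and 80 in afatinib skin. Its gefitinib libraries were level, at 26.1 and 26.2 CPM, and its afatinib libraries nearly so, at 3.64 and 3.08 CPM, whereas over all 26 members afatinib replicate 2 was a median of 5.16-fold above replicate 1. The count ratio to untreated was 414 (114 to 3419) for gefitinib (edgeR adjusted p = 0.00608) and 52.1 (14.1 to 434) for afatinib (edgeR adjusted p = 0.0257).

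Krtap1-3, further along the same stretch, ran the other way. It had 0 counts in both untreated libraries, 4.27 and 3.28 CPM in gefitinib, and 0.715 and 9.79 CPM in afatinib skin, with afatinib replicate 2 highest of all. It was at least 19.8-fold higher with gefitinib (edgeR adjusted p = 0.0374) and at least 27.5-fold higher with afatinib, where the test was missed (edgeR adjusted p = 0.0628). Krtap1-1, between them, read 0.207 and 0.116 CPM in untreated, 4.55 and 7.66 CPM in gefitinib, and 2.21 and 3.97 CPM in afatinib skin, and rose by 5.21 ± 0.68 and 4.24 ± 0.68 on the log2 scale (edgeR adjusted p = 0.0105 and 0.0321).

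In subfamily 2, Krtap2-4l was the highest, with 1 count in each untreated library, 302 and 422 counts in gefitinib, and 43 and 188 counts in afatinib skin. It rose in both comparisons, with count ratios of 237 (65.3 to 1960) and 88.5 (24.2 to 735), respectively (edgeR adjusted p = 0.00962 and 0.0257). Krtap2-1 also rose in both, and Krtap2-4, with 0 untreated counts and 0.195 to 1.37 CPM in treated skin, passed for gefitinib alone (edgeR adjusted p = 0.0347, and 0.0976 for afatinib). Members of a subfamily are close in sequence, and the sources used here do not say how reads that match several copies were counted, so the split of counts among close copies is uncertain.

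The 2 ultra-high sulfur members differed in which libraries were highest. Krtap4-3 had 1 and 0 counts in untreated, 138 and 273 in gefitinib, and 27 and 101 in afatinib skin, both afatinib libraries being below both gefitinib libraries in CPM (1.75 and 3.89 against 5.41 and 11.9). It rose in both comparisons (edgeR adjusted p = 0.0106 and 0.0350). Krtap17-1, at the far end of the chromosome 10 stretch, had 0.899 and 0.291 CPM in untreated, 25.1 and 11.7 CPM in gefitinib, and 8.25 and 41.1 CPM in afatinib skin. Its order of libraries was that of Krtap26-1 on chromosome 11, with afatinib replicate 2 highest and gefitinib replicate 1 next. It rose by 4.97 ± 0.96 (edgeR adjusted p = 0.0190) and 5.40 ± 0.97 on the log2 scale (edgeR adjusted p = 0.0369).

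Krtap31-1, which was placed in none of the classes, had 0 counts in both untreated libraries, 98 and 197 in gefitinib, and 7 and 11 in afatinib skin. In CPM the gefitinib libraries stood at 3.84 and 8.62 and the afatinib libraries at 0.455 and 0.424. It was at least 32.6-fold higher than untreated with gefitinib (edgeR adjusted p = 0.0106) and at least 2.30-fold higher with afatinib (edgeR adjusted p = 0.0705). Krtap16-1 was the weakest tested member, with 0 and 1 counts in untreated, 18 and 4 in gefitinib, and 3 and 27 in afatinib skin. Its count ratios of 14.4 (2.33 to 594) and 23.0 (3.82 to 937) did not pass (edgeR adjusted p = 0.140 and 0.175).

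Krtap12-2, the lone member of chromosome 20, had 0.692 and 0.0582 CPM in untreated, 11.8 and 4.29 CPM in gefitinib, and 1.56 and 12.8 CPM in afatinib skin. Per length it was among the 3 highest members of untreated skin, with Krtap8-1 and Krtap11-1. Its lowest treated library stood 2.26-fold above the higher untreated library, the smallest such gap among the 21 tested members with an untreated count, and it missed the threshold in both comparisons (4.46 ± 1.29 and 4.31 ± 1.28 on the log2 scale, edgeR adjusted p = 0.0528 and 0.108). Over those 21 the median gap was 12.1-fold, and the widest was that of Krtap16-5.

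Counted together, 24 of the 26 tested members were higher in gefitinib than in untreated skin, where 12.3% of all 16398 genes tested were called higher. With afatinib 16 of 26 were higher, against 3.6% of all genes, and for the mean of both inhibitors 23 of 26, against 11% of all genes. The comparisons share their untreated libraries. The 2 not called with gefitinib were Krtap16-1 and Krtap12-2, and by chromosome 12 of 13 members on 10 and 12 of 12 on 11 were called, which became 9 of 13 and 7 of 12 with afatinib. The median log2 change was 7.13 with gefitinib and 5.94 with afatinib, against 0.04 and 0.09 over all genes. With the 5 members that had no untreated count set at their bound it was 6.45 and 5.48. All 26 members passed the low-count filter through the treated libraries, which favours a positive change. These counts and medians therefore describe the members and carry no weight as a test.

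These counts of calls rested on both untreated libraries: without untreated replicate 1 the gefitinib and afatinib counts were 1 and 0, and without replicate 2 they were 0 and 0, while 25 and 25, and 24 and 23, members had an unadjusted p under 0.05, against 24.6% and 14.4%, and 22.7% and 12.9%, of all genes tested. Calls over all genes moved with the afatinib count, which was 8 with a replicate block and 24 with DESeq2. All-gene calls, in either direction, were then 369 and 1992 of 16398, against 652 in the main fit. Without the low-count filter 25 of 28 tested members were called, and 2083 of 22290 genes. With limma-voom 0 members and 34 genes were called. With only the untreated and afatinib libraries in the fit, 0 of 22 tested members and 51 of 15614 genes were. In these 2 fits 24 of 26 and 22 of 22 members had an unadjusted p under 0.05, against 21.4% and 18.8% of genes. The median log2 change of the members was 4.49 without afatinib replicate 2 and 6.47 without replicate 1.

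**Figure D2:**
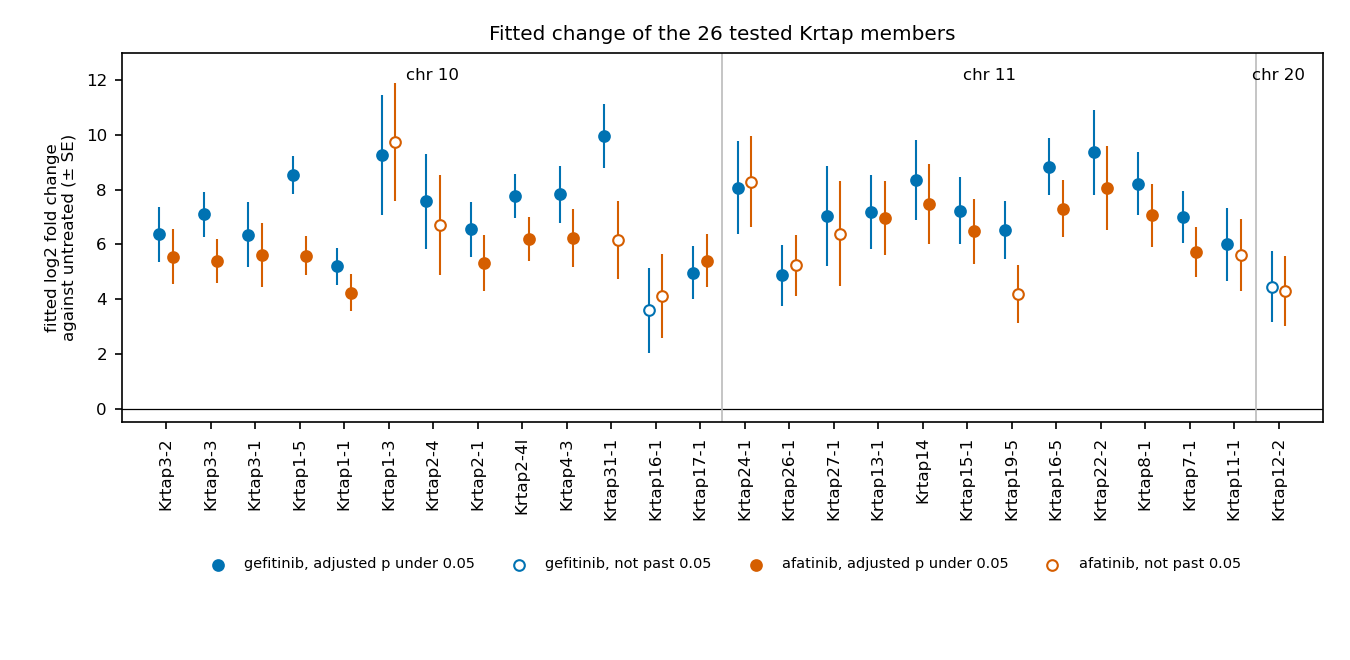
Fitted log2 fold change against untreated skin, with its standard error, for the 26 tested members with gefitinib and with afatinib; filled symbols passed an edgeR adjusted p of 0.05. All changes are positive, 24 gefitinib and 16 afatinib symbols are filled, and the values of the 5 members with no untreated count (Krtap1-3, Krtap2-4, Krtap31-1, Krtap24-1 and Krtap27-1) depend on the prior count of the fit.

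Afatinib and gefitinib skin were also compared directly, at their different doses. Of the 26 members 0 passed by edgeR, as did 0% of all genes tested, while 7 had an unadjusted p under 0.05, against 5.77% of all genes. That number was 18 without afatinib replicate 2, when the median log2 change of the members was -2.54, and 4 without gefitinib replicate 2. With DESeq2, and with edgeR without the low-count filter, 2 passed, Krtap1-5 and Krtap31-1 in each case. In 10 members both afatinib libraries lay below both gefitinib libraries, as in 19.9% of all genes tested. Krtap31-1 differed by -3.81 on the log2 scale (95% interval -5.41 to -2.21, edgeR adjusted p = 0.787), Krtap1-5 by -2.96 (-4.04 to -1.88, edgeR adjusted p = 0.711) and Krtap19-5 by -2.34 (-4.11 to -0.57, edgeR adjusted p = 0.787). The intervals also lay below 0 for Krtap3-3 (-1.71, interval -3.06 to -0.36), Krtap2-4l (-1.58, -2.78 to -0.38), Krtap4-3 (-1.60, -3.09 to -0.12) and Krtap16-5 (-1.54, -3.06 to -0.028), each at an edgeR adjusted p of 0.787. For the remaining members the intervals included 0, as for Krtap13-1 (-0.21, interval -2.32 to 1.90) and Krtap11-1 (-0.41, interval -2.73 to 1.92).

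How a member compared depended on the library. Afatinib replicate 2 was above both gefitinib libraries in 8 members (Krtap1-3, Krtap16-1, Krtap17-1, Krtap24-1, Krtap26-1, Krtap13-1, Krtap11-1 and Krtap12-2), between them in 8 and below both in 10. Set against the mean of the gefitinib pair, it reached 2.59 times the level for Krtap1-3, 2.36 times for Krtap16-1 (on 27 counts), 2.23 times for Krtap17-1 and 2.17 times for Krtap26-1. By contrast it reached 0.118 times for Krtap1-5, 0.126 times for Krtap19-5 and 0.0681 times for Krtap31-1. These 3 members, together with Krtap16-1, were also those in which afatinib replicate 1 was not the lowest treated library. The ratio of afatinib replicate 2 to replicate 1 ran from 0.460 to 13.7, with a median of 5.16.

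**Figure D3:**
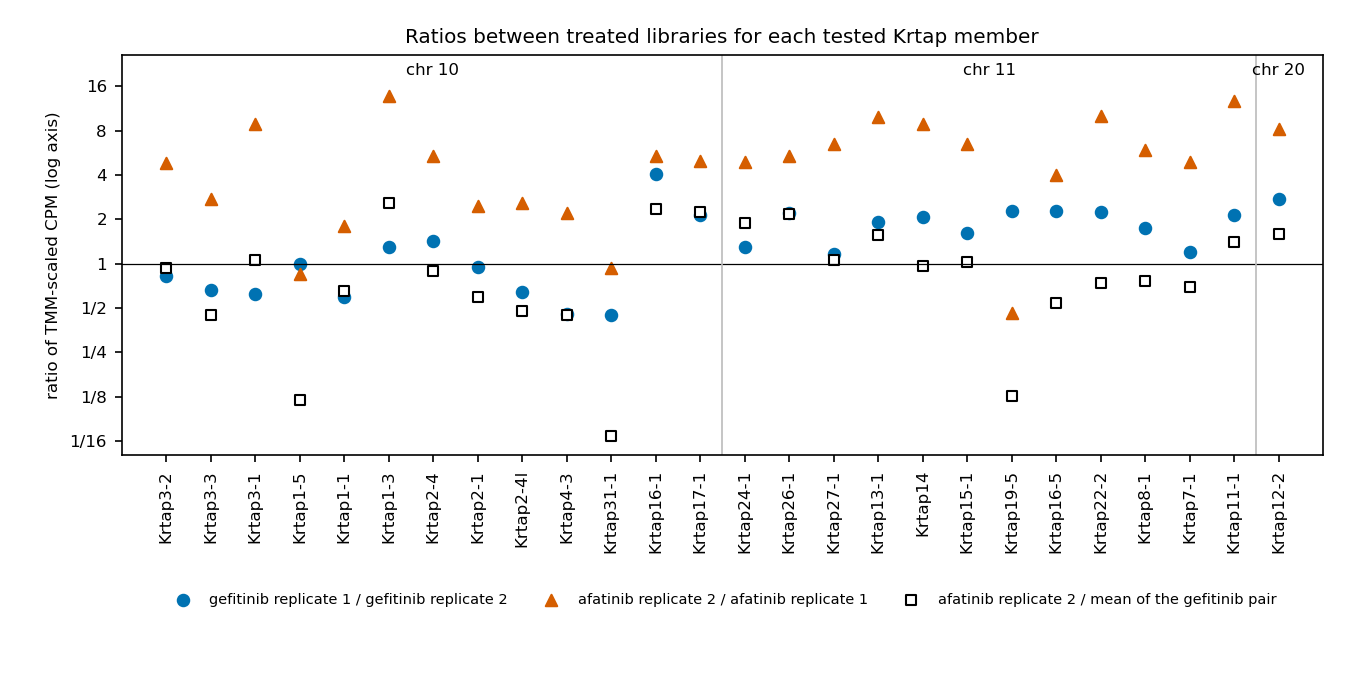
Ratios of TMM-scaled CPM between treated libraries for the 26 tested members, on a log axis in chromosome order; circles are gefitinib replicate 1 over 2, triangles afatinib replicate 2 over 1, and squares afatinib replicate 2 over the mean of the gefitinib pair. The 12 circles of chromosome 11 lie above 1, while 9 of the 13 of chromosome 10 lie below it, and the squares of Krtap1-5, Krtap31-1 and Krtap19-5 fall far below the rest.

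The gefitinib libraries differed by chromosome. Replicate 1 was above replicate 2 in 12 of 12 tested members on chromosome 11, by a median of 1.999-fold, and in 4 of 13 on chromosome 10 (Krtap1-3, Krtap2-4, Krtap16-1 and Krtap17-1), where the median ratio was 0.824. With scaling by library size alone the chromosome 10 count was 6 of 13. Summed, chromosome 10 gave 138 and 167 CPM in the gefitinib libraries and chromosome 11 604 and 333 CPM. In afatinib skin the sums were 30.9 and 121 CPM for chromosome 10 and 66.2 and 443 CPM for chromosome 11. The share of chromosome 10 in the Krtap counts was therefore 18.2% (95% Wilson interval 17.7% to 18.8%) and 33.1% (32.2% to 33.9%) in gefitinib, and 31.4% (29.1% to 33.7%) and 21.0% (20.4% to 21.7%) in afatinib skin. In untreated skin it was 27.1% (20.2% to 35.4%) and 48.3% (31.4% to 65.6%), on few counts. The spread within each treated group was as wide as that between the groups, so no difference of share between the inhibitors was seen beyond the replicates. Intervals on shares cover counting error only.

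**Figure D4:**
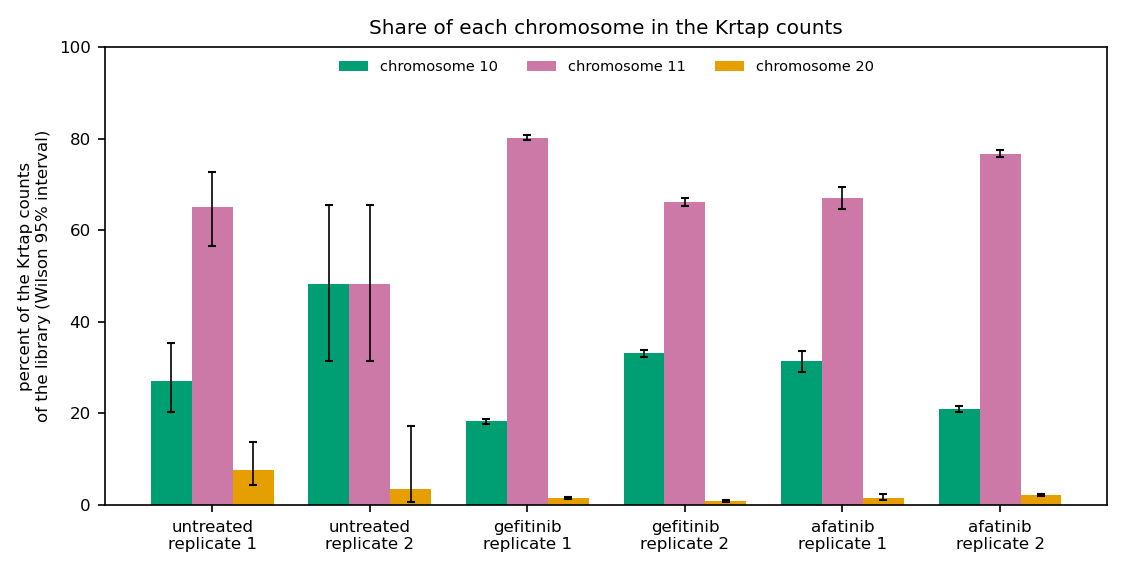
Percent of each library's Krtap counts that came from the members on chromosomes 10, 11 and 20, as bars from 0 with Wilson 95% intervals. Chromosome 10 holds 18.2% and 33.1% in the gefitinib libraries and 31.4% and 21.0% in the afatinib libraries, and the untreated intervals are wide.

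By protein class, high sulfur members made up 51.0% and 56.0% of the Krtap counts in gefitinib and 56.4% and 61.5% in afatinib skin. High glycine-tyrosine members made up 35.8% and 31.9%, and 26.5% and 26.2%, respectively, so the afatinib libraries lay below the gefitinib libraries. The 2 ultra-high sulfur members made up 4.05% and 4.70%, and 10.1% and 7.81%. That gap came from Krtap17-1 alone, at 3.33% and 2.33% in gefitinib and 8.37% and 7.13% in afatinib skin. The shares of Krtap4-3 overlapped, at 0.718% and 2.37%, and 1.78% and 0.675%. Loci that carry a Pfam label of a member but are not named Krtap were left out of these shares. With 2 libraries a group, an exact two-sided permutation test of such shares cannot give a p below 0.333, and none was run.

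Other genes of the hair shaft were high in the same libraries, and their counts of calls stand beside 12.3% of all genes called higher with gefitinib and 3.6% with afatinib. Of 7 tested type I hair keratins, the acidic partners of the hair filament, 6 were higher with gefitinib and 5 with afatinib. Of 6 type II hair keratins, the basic partners, 6 and 1 were higher. Krt35, an early cortex keratin, stood at 11.8 and 39.2 CPM in untreated, 1032 and 756 CPM in gefitinib, and 166 and 680 CPM in afatinib skin. Krt86 had 0 and 0.0582 CPM in untreated, 57.4 and 25.6 CPM in gefitinib, and 3.57 and 49.05 CPM in afatinib skin, low in afatinib replicate 1 like most Krtap members. Of 6 shaft enzymes and other shaft proteins 5 and 5 were higher, among them S100a3, a cuticle calcium-binding protein, and Padi3, which converts arginine to citrulline in hair proteins.

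Of 12 regulators of shaft differentiation 10 were higher with gefitinib, against 12.3% of all genes, and 2 with afatinib, against 3.6%. Hoxc13, a homeodomain factor known to drive hair keratin and Krtap genes, had 0.622 and 4.54 CPM in untreated, 71.8 and 42.0 CPM in gefitinib, and 11.2 and 64.4 CPM in afatinib skin. It rose with gefitinib (4.43 ± 1.05 on the log2 scale, edgeR adjusted p = 0.0320) and missed the threshold with afatinib (3.85 ± 1.03, edgeR adjusted p = 0.0827). Lef1, the nuclear partner of beta-catenin in the hair matrix, had 3.25 and 10.5 CPM, 146 and 156 CPM, and 33.8 and 101 CPM, and rose in both comparisons (edgeR adjusted p = 0.0137 and 0.0475).

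The order of the untreated libraries differed between these genes. Krtap sums were 8.92 CPM in untreated replicate 1 and 1.69 CPM in replicate 2, whereas type I hair keratins summed to 18.8 and 46.4 CPM and type II to 3.87 and 19.5 CPM. The keratin sums were set mainly by Krt35 and by Krt85 (2.90 and 19.03 CPM), while 3 of the 7 type I and 3 of the 6 type II genes were higher in replicate 1. Shaft enzymes and other shaft proteins summed to 76.2 and 66.8 CPM, in the order of the Krtap sums. Of these 7 genes, however, 3 were higher in replicate 1 and 3 in replicate 2. Among the 12 regulators 3 were higher in replicate 1 and 9 in replicate 2. Inner root sheath markers come from the sheath that moulds the shaft. They summed to 65.8 and 242 CPM in untreated, 3095 and 2913 CPM in gefitinib, and 966 and 2480 CPM in afatinib skin. Of these 7 markers, 7 were called higher with gefitinib and 3 with afatinib, against 12.3% and 3.6% of all genes. The proliferation markers Mki67, Top2a and Cdk1 mark dividing cells of any type and are not particular to the hair matrix. They summed to 43.8 and 56.9 CPM, 460 and 498 CPM, and 195 and 362 CPM. For each inhibitor 3 of 3 were called higher, against the same 12.3% and 3.6% of all genes. Cortex and cuticle markers summed to 19.8 and 65.6 CPM, 2220 and 1278 CPM, and 306 and 1852 CPM.

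Dermal papilla markers, from the cell cluster at the follicle base, summed to 55.5 and 56.6 CPM in untreated, 207 and 138 CPM in gefitinib, and 92.3 and 201 CPM in afatinib skin. The keratins Krt84 and Krt36, found also in tongue papillae and nail, summed to 1.45 and 0.233 CPM, 41.5 and 25.4 CPM, and 6.50 and 26.4 CPM. Melanocyte markers were uneven within the treated groups, at 16.2 and 25.9 CPM, 6.90 and 167 CPM, and 79.3 and 4.32 CPM. They were highest in the gefitinib library and the afatinib library in which the Krtap sum was the lower of the pair. Fibroblast markers summed to 20893 and 9854 CPM, 5958 and 1150 CPM, and 8634 and 3085 CPM, higher in replicate 1 of each group. The part of these other cell types in the Krtap results was not tested.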

How the data were processed

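RNA from rat back skin was sequenced in 6 libraries, 2 per group, made with a TruSeq kit per the labels' protocols. The submitters' processing notes name the aligner HISAT2 2.0.5, the counter featureCounts 1.5.0-p3 and DESeq2 1.16.1; the sources used here do not give the build, annotation release, strand setting or treatment of multiply mapped reads. Whole, unscaled read counts per locus were deposited. In the deposited FPKM table each count is divided by the gene's length and by 1 constant per library, which was checked against the counts. The members and gene lists were chosen with earlier results of these data known, and the protein classes were assigned by subfamily number after the values were seen.

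Counts were filtered with filterByExpr (minimum count 10, minimum total 15), which left 16398 of 34225 loci and 99.9% of counts; 1342 loci without a gene name stayed in. They were TMM-scaled and fitted in R 4.3.3 with the edgeR 4.0.16 quasi-likelihood test over all 6 libraries (3 residual degrees of freedom), two-sided, with Benjamini-Hochberg adjustment over the loci tested and a threshold of 0.05. The test was tried on simulated data in which all genes had the same relative spread. The members here had few untreated counts and replicates that lay far apart, so the trial does not bear on their calls. Alternatives used DESeq2 1.42.0, limma 3.58.1, other scalings and filters, a replicate block and the removal of each library. The genes named were, by rule, the highest member of each subfamily per length, the 3 largest and 3 smallest changes of the inhibitor mean, the 3 highest untreated members and members that were not called, at most 5 per inhibitor; Krtap3-2, Krtap3-3, Krtap2-1, Krtap2-4, Krtap13-2 and Krtap14l were added after their values were seen, as were the hair keratins, shaft proteins and regulators named. The labels name no molecular identifiers, so counting intervals and the floor of 3 counts cover counting error only.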

Additional observations from a re-analysis of the deposited data

How the results depend on the processing

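Against untreated skin no member named changed direction under any alternative, and the gefitinib count of members called higher (24 of 26) stayed within 1.5 times (lowest 16, with limma-voom) except when a library was left out. Leaving out each library in turn gave 0 to 25 members for gefitinib, 0 to 23 for afatinib (16 in the data as analysed) and 0 to 25 for the mean of both (23). The lowest counts came without an untreated library, when 10 and 0 genes of the whole table were called for gefitinib and 1 and 0 for afatinib; in these fits the lone untreated library is assumed to vary like the other groups. The afatinib count was 0 with limma-voom and 8 with a replicate block. It was 25 of 28 tested members without the low-count filter. With only the untreated and afatinib libraries in the fit it was 0 of 22. Calls over all genes, in either direction, were 34, 369, 2083 and 51 in these fits, against 652 in the data as analysed. The mean count was 14 with limma-voom, with 1963 genes called over the whole table. The cause was not tested. The mean of both inhibitors has no separate fit with only the groups compared. Afatinib against gefitinib called 2 members with DESeq2 and 2 without the low-count filter, Krtap1-5 and Krtap31-1 in each.

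Scaling by library size alone moved the median log2 change of all genes from 0.04 to 0.73 for gefitinib and from 0.09 to 0.71 for afatinib, and the smallest change of a member was then 4.22 and 4.68. Replicate numbers are shared across groups. The deviations of same-numbered libraries correlated at 0.04 (untreated and gefitinib), 0.06 (untreated and afatinib) and -0.23 (gefitinib and afatinib). With 2 numbers these values cannot tell whether same-numbered libraries share more than the number. The replicate block left 22 members for gefitinib and 22 for the mean.

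Members changed sign only in afatinib against gefitinib, where no such value passed the threshold. On the log2 scale Krtap1-3 and Krtap24-1 did so with limma-voom (-0.22 and -0.016) and with the replicate block (-0.33 and -0.11). Leaving out each library in turn gave -2.38 to 1.36 for Krtap1-3, -1.34 to 0.92 for Krtap24-1, -1.15 to 1.77 for Krtap16-1, -1.14 to 1.15 for Krtap17-1, -1.30 to 1.11 for Krtap26-1, -3.04 to 0.083 for Krtap3-1, -2.56 to 0.070 for Krtap27-1, -2.65 to 0.64 for Krtap13-1, -2.66 to 0.021 for Krtap15-1, -3.16 to 0.47 for Krtap11-1 and -2.35 to 0.69 for Krtap12-2. The lowest value of each came without afatinib replicate 2. Depth limits the untreated values: 1 count there is worth 0.0582 to 0.0692 CPM.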

Other observations

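The table holds 22 further loci that carry a Pfam label of a Krtap member but are not named Krtap, 11 on chromosome 10, 5 on chromosome 11 and 6 on chromosome 20. They summed to 1.66 and 0.698 CPM in untreated, 266 and 311 CPM in gefitinib, and 43.9 and 157 CPM in afatinib skin. In 16 of the 22 every treated library was above both untreated libraries, an order that 27.2% of all genes tested had. The 22 were not filtered by count as those genes were, and 16 had at least 10 counts in at least 2 libraries. Of the 22, 3 had 0 counts in all libraries. An unnamed locus on chromosome 11 from 28912396 to 28913733, chosen after its values were seen, carries the keratin-associated matrix label of its neighbour Krtap16-5. It had 0.899 and 0.0582 CPM in untreated, 149 and 203 CPM in gefitinib, and 21.9 and 63.5 CPM in afatinib skin. Per length it reached 109 and 151 FPKM in the gefitinib libraries, below Krtap8-1 and Krtap22-2. Its gefitinib replicate 2 was above replicate 1, whereas the 12 tested members of chromosome 11 had the opposite order.

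The gene model of Krtap4-3 spans chromosome 10 from 87586472 to 87753700, although its listed length is 1603 bases, and RefSeq lists 2 promoters under this symbol among the 26 entries of the 25 matched members. Whether its counts come from several copies was not tested.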
